A study of Mus musculus with 6 samples.

Results

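Imprinted genes are a small class of genes read mainly from the copy inherited from 1 parent. The genes described here were chosen by the low normalized count of 1 of them, Peg3, in Sox9cKO against Control biliary epithelial cells. The question was whether other imprinted genes were lower too. The set named 38 imprinted genes, and 35 of them had a row among the 25302 rows of the expression table. Dlk1, Magel2 and Ascl2 were not analysed here. The values of Peg3 led to the set, so they are given as a description and without a test.

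RNA sequencing was done on biliary epithelial cells, which form the lining of bile ducts, taken from mouse liver. The 3 Control samples were Sox9fl/fl, with Sox9, a transcription factor gene, floxed and no Cre. The 3 Sox9cKO samples were Sox9fl/fl:AlbCre+/-, which adds a Cre recombinase driven by the albumin promoter, so the presence of Cre and the loss of Sox9 cannot be told apart. The labels name no age, sex or treatment and do not say that the replicates were separate animals, so p-values measure the spread between these samples only. The albumin promoter is active in hepatocytes and in the fetal progenitors that give rise to both hepatocytes and biliary cells, so other cells of hepatic origin can carry the deletion.

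At an imprinted domain, DNA methylation laid down in the egg or the sperm marks a control region, and the mark is kept on that parental copy through later cell divisions. Neighbouring genes then share the control region, and some are read from the paternal copy and others from the maternal copy. Many imprinted genes act on fetal growth and are turned down after birth in the liver. PEG3 itself is a large zinc finger protein read from the paternal copy, and USP29, a deubiquitinase-family gene on the opposite strand, and ZIM1, a maternally expressed zinc finger gene, lie beside it.

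Reads in genes numbered 11883496 to 16191990 per sample. All values are normalized counts, that is, reads divided by 1 size factor per sample. Sox9 itself was lower in every Sox9cKO sample, at 3363, 3165 and 3340 against 6211, 6043 and 6293 in Control, and its log2 fold change was -0.91 (limma, adjusted p 0.00501). limma called 2.03% of all tested genes higher and 0.939% lower, the background for the calls of this fit in the marker lists that follow. For counts at an unadjusted p under 0.05, here and below, no such background is given. All 14 biliary markers listed were detected and tested. Their log2 fold changes were below 0 in 8 and above 0 in 6 (median -0.11), and their summed level was 98435 to 136873 in Control and 89942 to 115658 in Sox9cKO. Of them, Krt7 rose, from 1948 ± 196 to 3958 ± 1018 (SD, n = 3, limma adjusted p 0.0408), and 3 were lower at an unadjusted p under 0.05, 1 of them called lower by DESeq2 (background 2.87%). Of 16 hepatocyte markers, limma called 7 higher (Apob, Serpina1a, Fgb, Fga, Fgg, Hp and Tat, by 2.26 to 6.46 log2 units). The log2 fold changes of the list were above 0 in 14 and below 0 in 2, with a median of only 0.78. Its summed level was 25688 to 39898 in Control and 56486 to 86591 in Sox9cKO. Of 8 tested leukocyte and erythroid markers, Csf1r rose, and the other 7 had log2 fold changes below 0 (median of the list -0.58), 3 of them at an unadjusted p under 0.05. Their sums, Csf1r included, were 1066 to 1157 in Control and 1530 to 1834 in Sox9cKO. Of 15 stellate cell, fibroblast and mesothelial markers, Msln rose, and the sums were 2745 to 3382 in Control and 3383 to 7198 in Sox9cKO. None of 10 endothelial markers was called (limma, 1 at an unadjusted p under 0.05, 0 by edgeR and 0 by DESeq2), but all 10 had log2 fold changes above 0 (median 1.07). Their sum ran from 1957 to 43420 in Control and from 7057 to 44474 in Sox9cKO, and was higher in Sox9cKO in each of the 3 same-numbered pairs. When the replicate number entered the limma fit as a block, 2.99% of all tested genes were called lower and 5.06% higher. Against that background, further markers were called, among them the biliary markers Spp1 (log2 fold change -0.66) and Pkhd1 (-0.68) and the leukocyte marker Lyz2 (-1.33) lower. Hnf4a (0.75) and the endothelial marker Vwf (0.72) were called higher. The block called 3 biliary markers lower and 1 higher. No listed marker with a row was at 0 in all samples. These are bulk libraries, in which fewer cells of a type and less RNA per cell cannot be told apart. The part of these cell types in the results below was not tested, also where a marker value is given beside a gene.

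The promoters of Peg3, Zim1 and Dio3 are printed because Peg3 and Zim1 are neighbours that were both low in Sox9cKO, whereas Dio3 was the tested member farthest in the opposite direction. Each sequence is the 250 bases before the transcription start, from RefSeq on GRCm38.p6, with matches to 5 short motifs on either strand in capitals. The motifs were TGCCGC (bound by the imprint-keeping protein ZFP57 when methylated), GCCATNTT (YY1), ACAAT (core of SOX protein sites), CCAAT (a common promoter box) and TGACGTCA (cyclic AMP response element, CRE). The last pair was added after the sequences were seen.
Peg3, chr7:6730420-6730669, minus strand: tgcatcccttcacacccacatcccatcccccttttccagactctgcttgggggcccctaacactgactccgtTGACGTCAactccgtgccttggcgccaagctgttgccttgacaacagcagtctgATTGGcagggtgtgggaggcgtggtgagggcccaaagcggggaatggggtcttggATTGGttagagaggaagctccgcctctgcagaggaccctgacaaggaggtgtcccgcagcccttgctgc
Zim1, chr7:6696433-6696682, minus strand: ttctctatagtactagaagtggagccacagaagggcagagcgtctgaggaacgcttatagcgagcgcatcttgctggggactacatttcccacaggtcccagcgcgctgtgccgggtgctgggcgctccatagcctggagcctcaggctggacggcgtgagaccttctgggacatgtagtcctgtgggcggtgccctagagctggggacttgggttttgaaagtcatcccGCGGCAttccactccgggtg
Dio3, chr12:110278980-110279229, plus strand: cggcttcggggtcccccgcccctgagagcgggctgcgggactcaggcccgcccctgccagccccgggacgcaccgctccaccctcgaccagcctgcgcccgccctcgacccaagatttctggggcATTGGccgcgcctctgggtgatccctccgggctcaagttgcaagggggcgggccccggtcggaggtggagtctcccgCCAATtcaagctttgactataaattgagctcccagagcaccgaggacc

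In the 300-base windows that add 50 bases after the start, Peg3 held 1 CRE and 2 CCAAT boxes, the latter printed as ATTGG. Zim1 held 1 TGCCGC, printed as GCGGCA. Dio3 held 2 CCAAT boxes. None of these windows held ACAAT or GCCATNTT. Over all 32851 RefSeq windows, a CRE was found in 1.79%, a CCAAT box in 37.4%, TGCCGC in 11.6%, ACAAT in 31.0% and GCCATNTT in 6.05%. Peg3 and Usp29 start 164 bases apart on opposite strands, and their windows share 263 bases. The windows held 13 CG dinucleotides in Peg3, 20 in Zim1 and 25 in Dio3, against a median of 7 over all windows. A match is a match of letters and does not show binding.

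Besides Peg3, whose low level led to the set, Usp29 and Zim1 had lower values in all Sox9cKO samples than in any Control sample, where 13.6% of all rows did, whereas Zfp264, another gene of the domain, overlapped. Peg3 (ENSMUSG00000002265) had 4853, 2704 and 4051 normalized counts in Control samples 1 to 3 and 782, 710 and 1002 in Sox9cKO samples 1 to 3. The lowest Control value was thus well above the highest Sox9cKO value. The means were 3869 ± 1086 and 831 ± 152 (SD, n = 3 each), so that Sox9cKO stood at 21.5% of Control, and the log2 fold change was -2.19 (SE 0.23). Of 17153 tested genes, 100 had a lower log2 fold change. Between same-numbered samples the differences were -2.63, -1.93 and -2.01 log2 units. Leaving out each sample in turn moved the log2 fold change between -2.43 and -2.01.

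**Figure D1:**
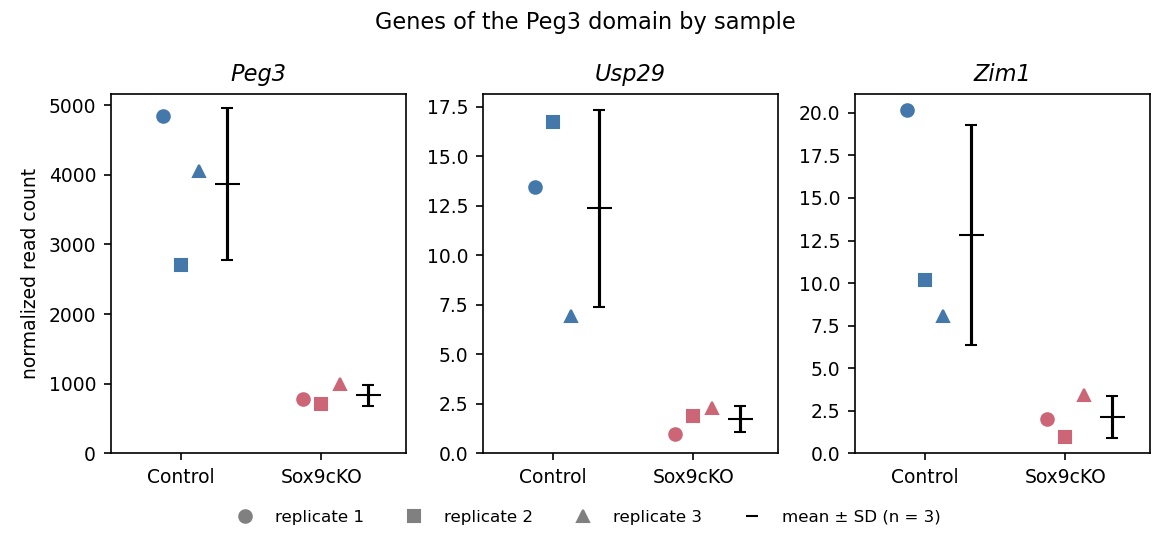
Normalized counts of Peg3, Usp29 and Zim1 in each sample (points, 1 panel per gene with its own axis; bars, mean ± SD, n = 3). Every Sox9cKO point lies below every Control point of the same gene, and Usp29 and Zim1 rest on far fewer reads than Peg3.

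Usp29 (ENSMUSG00000051527) had 13.4, 16.7 and 6.91 normalized counts in Control and 0.995, 1.89 and 2.26 in Sox9cKO. Every Sox9cKO value lay under the lowest Control value. Its 40 reads in Control and 5 in Sox9cKO gave a Control to Sox9cKO ratio of 7.52 (exact 95% interval 2.97 to 24.4, counting error only). Usp29 was under the mean of 10 normalized counts required for testing. With no such filter its log2 fold change was -2.25 (SE 0.50, limma adjusted p 0.0648, 0.0438 when the replicate number entered as a block, edgeR 0.0666).

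Zim1 (ENSMUSG00000002266) showed the same order at similar depth, with 20.2, 10.2 and 8.06 normalized counts in Control and 1.99, 0.945 and 3.40 in Sox9cKO. The groups were apart again. It had 42 reads in Control and 6 in Sox9cKO, a ratio of 6.58 (exact 95% interval 2.78 to 18.9, counting error only). Without the filter the log2 fold change was -2.13 (SE 0.53, limma adjusted p 0.0913, 0.0549 with the block, edgeR 0.103). Zim1 is read from the maternal copy and Peg3 from the paternal copy. Peg3, Usp29 and Zim1 do not overlap each other in the annotation. Of the other genes of the domain, Zfp264 had 10.9, 11.1 and 16.1 in Control and 27.9, 3.78 and 10.2 in Sox9cKO, with overlapping groups (log2 fold change -0.23, limma adjusted p 0.90). Zim2, Zim3 and Apeg3 were not analysed here.

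The 10 nearest genes with a row, 5 on each side of Peg3, include Usp29 and Zim1. None of the 5 that could be tested (Zfp78, Zfp28, Zfp954, Zfp773 and Zfp418, all zinc finger genes) was called by limma with or without the block, by edgeR or by DESeq2, 0 had an unadjusted p under 0.05, and their log2 fold changes ran from -0.75 to 0.26. In each of these 5 the groups overlapped. Smim17, the row next to Zim1 and not known to be imprinted, had 5.04, 5.57 and 2.30 normalized counts in Control and 0, 1.89 and 0 in Sox9cKO. Its groups were apart, on 14 reads against 2 (ratio 6.58, exact 95% interval 1.51 to 59.6, counting error only), and the unfiltered log2 fold change of -1.83 was not called (limma adjusted p 0.182, 0.101 with the block, edgeR 0.266). Gm3854 and Gm6828, also too low to test, overlapped between groups. Besides Peg3, the groups were thus apart as lower in Smim17, Zim1 and Usp29, where 13.6% of all rows were, and none of these 3 was called by limma without the filter or the block.

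**Figure D2:**
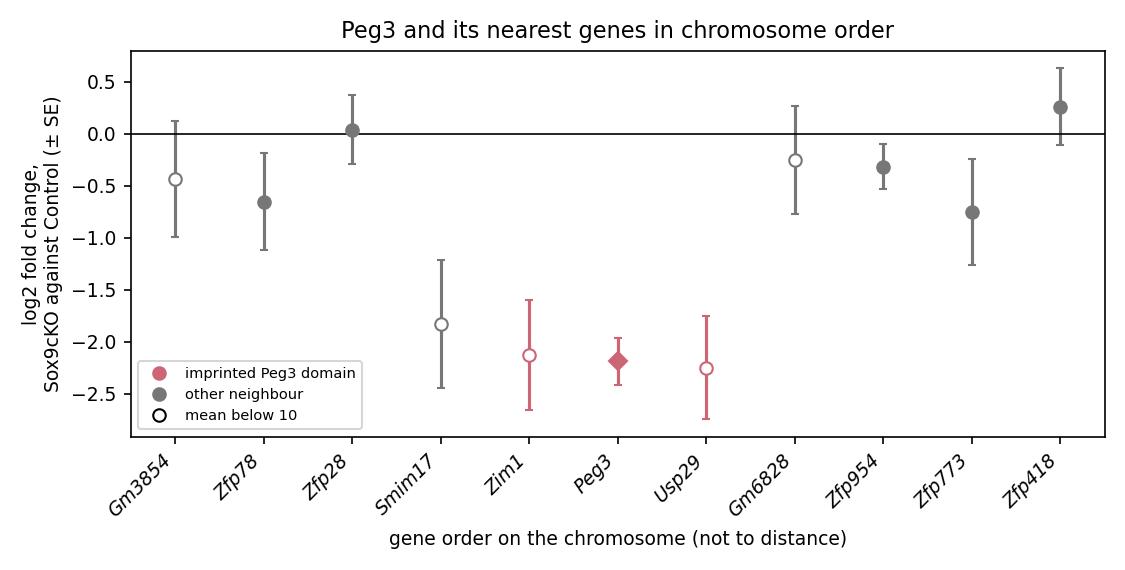
Log2 fold change (Sox9cKO over Control) of Peg3 and its 10 nearest rows in chromosome order, with bars of 1 standard error and open points for rows with a mean below 10 normalized counts. Smim17, Zim1, Peg3 and Usp29 lie between -2.25 and -1.83, and the genes farther out lie between -0.75 and 0.26.

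Among the other 37 named genes, 34 had a row and 28 had a mean of at least 10 normalized counts. None of the 28 was called by limma at an adjusted p of 0.05, where 0.939% of all 17153 tested genes were called lower and 2.03% higher. At an unadjusted p under 0.05, 1 was lower (Peg10) and 4 were higher (Dio3, Meg3, Rian and Plagl1), with no share of all genes at that threshold given here. edgeR called 0 in either direction (background 1.04% lower and 1.82% higher). DESeq2 called those 5 genes, 1 lower and 4 higher (background 2.87% and 4.20%). Same-numbered samples deviated together, and limma with this block called Peg10 lower and Dio3 and Plagl1 higher (background 2.99% and 5.06%). edgeR with the block also called 1 lower and 2 higher (background 2.89% and 3.87%).

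The log2 fold changes of the 28 were above 0 in 20 and below 0 in 8, and 18 lay within 0.5 of 0. Their median was 0.14, and the median over all tested genes was 0.036. Taken for each Sox9cKO sample against the Control mean, the median of the 28 had an SD of 0.11 (n = 3). The filter used the mean of all 6 samples, so the genes counted here were partly chosen by their Sox9cKO values. Mirg and Rtl1 passed with Control means of 9.01 and 7.59, and Usp29 and Zim1 failed with 12.4 and 12.8. With no filter the median of the members other than Peg3 was 0.089 and that of all rows -0.051. The parental copy was assigned to each gene from what is known of it and was not measured in these samples. The 13 tested genes assigned to the paternal copy, as Peg3 is, had 6 values below 0 and 7 above, with a median of 0.26. The 12 assigned to the maternal copy had 2 below and 10 above, with a median of 0.11. Of these 10, Meg3, Rian and Mirg lie in 1 domain and were all highest in Sox9cKO sample 1, so the 10 are not independent. Ube3a, Cdkn1c and Phlda2 were near 0 (0.01, 0.04 and 0.05). No share of all tested genes above 0 is given here, so the counts of signs have no background. The 3 assigned to either copy depending on tissue or transcript (their median was 0.14) were all above 0. Groups were apart in 1 of the 28 as lower (10.8% of all tested genes) and in 4 as higher (13.4%). Over all 34 with a row, they were apart in 4 as lower (Usp29, Zim1, Ndn and Peg10, against 13.6% of all rows) and in 5 as higher (H19 besides the 4, against 10.1%).

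**Figure D3:**
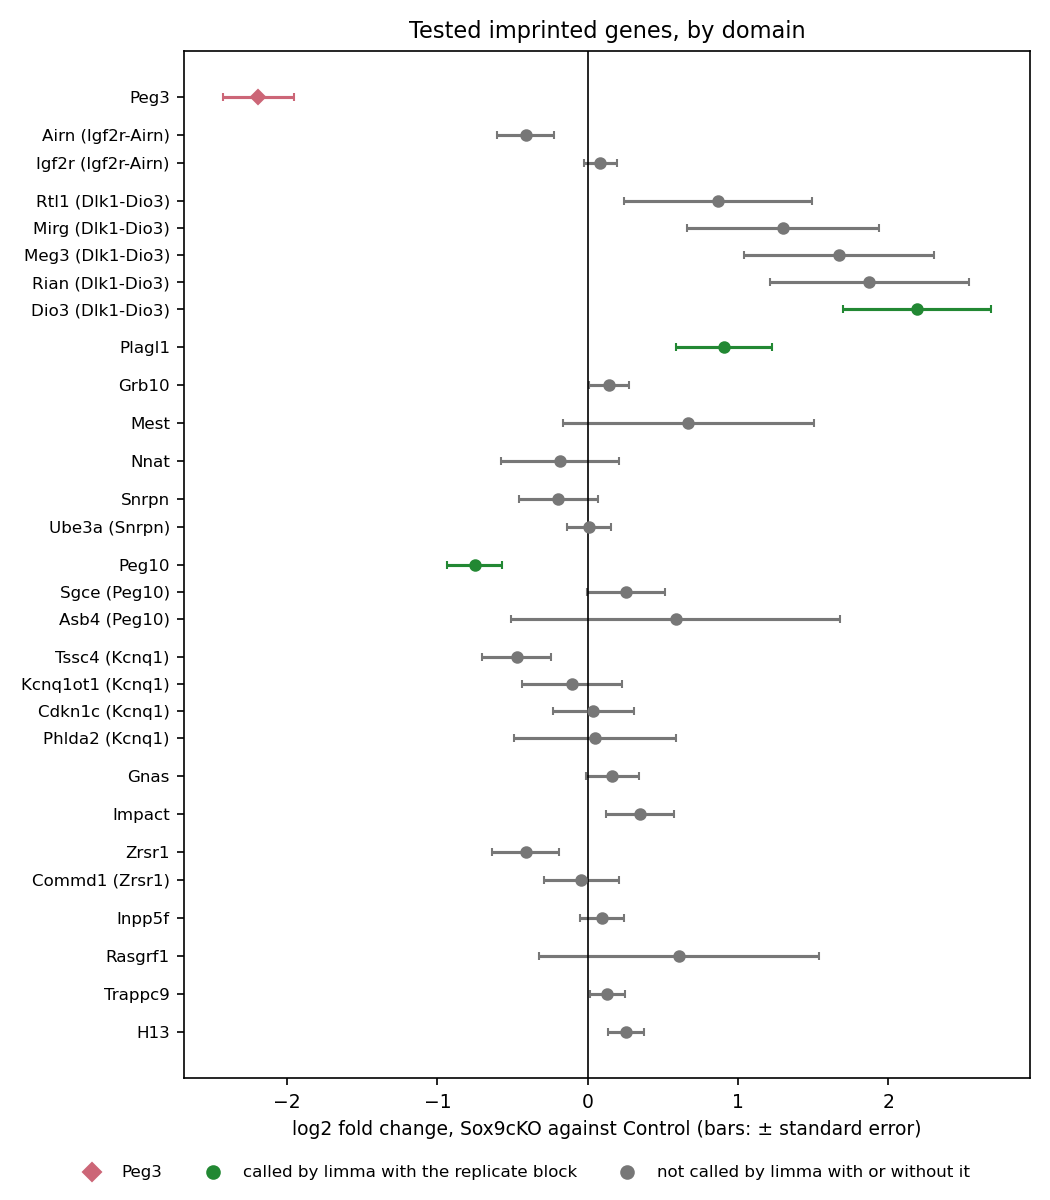
Log2 fold change (Sox9cKO over Control) with bars of 1 standard error for the 29 tested imprinted genes, grouped by domain and coloured by whether limma called them. Peg3 stands alone at -2.19, Peg10 follows at -0.75, and Dio3 lies at the other end at 2.19.

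Peg10, a gene derived from a retrotransposon and read from the paternal copy, was the tested member with the next lowest log2 fold change after Peg3. It had 757, 595 and 586 normalized counts in Control and 471, 333 and 352 in Sox9cKO. All Sox9cKO values were under all Control values. The means were 646 ± 95.8 and 385 ± 74.7 (SD, n = 3), and the log2 fold change was -0.75 (SE 0.18, limma adjusted p 0.0844, 0.0123 with the block, DESeq2 0.00502). The differences of the same-numbered samples were -0.68, -0.84 and -0.73. Its tested domain neighbours had log2 fold changes above 0. Sgce (epsilon-sarcoglycan), which starts beside Peg10 and is also paternal, ranged from 138 to 261 in Control and from 231 to 270 in Sox9cKO (log2 fold change 0.26, limma adjusted p 0.669). Asb4 is described with Mest below.

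The Dlk1-Dio3 domain, which holds paternally expressed protein genes and maternally expressed non-coding RNAs, had its 5 measured members at positive log2 fold changes. Dio3 encodes the deiodinase that inactivates thyroid hormone. It had 144, 73.3 and 106 normalized counts in Control and 854, 221 and 576 in Sox9cKO. The lowest Sox9cKO value, in sample 2, was above the highest Control value. The means were 108 ± 35.2 and 550 ± 317 (SD, n = 3), and the log2 fold change was 2.19 (SE 0.49, limma adjusted p 0.0691, 0.00289 with the block). The same-numbered samples differed by 2.56, 1.58 and 2.43. Of the 6 limma fits without a block that each left out 1 sample, 1 called Dio3. That was the fit without Sox9cKO sample 2, the lowest of its group, at a log2 fold change of 2.74 (adjusted p 0.0181). In the other such fits the limma adjusted p was 0.148 to 0.184, and without Sox9cKO sample 1 the log2 fold change was 1.77.

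The maternal non-coding RNAs of the domain were high in 1 library in particular. Meg3 had 54.6, 63.1 and 54.1 in Control and 512, 70.9 and 172 in Sox9cKO, with the groups apart (log2 fold change 1.67, limma adjusted p 0.227, 0.0969 with the block, DESeq2 0.00664). Rian, a host of small nucleolar RNAs, had 30.3, 40.8 and 34.6 in Control and 366, 47.3 and 128 in Sox9cKO, also apart (1.87, limma adjusted p 0.200, 0.0944 with the block, DESeq2 0.00390). In both, Sox9cKO sample 2 was only just above Control and sample 1 was highest. Mirg, a host of microRNAs, had 11.8, 8.35 and 6.91 in Control and 58.7, 9.45 and 21.5 in Sox9cKO, and its groups overlapped (1.30, limma adjusted p 0.350). Rtl1, a paternal retrotransposon-derived gene, had 5.88, 11.1 and 5.76 in Control and 35.8, 9.45 and 7.92 in Sox9cKO, with overlap (0.87, limma adjusted p 0.531). Sox9cKO sample 1 was the highest of the 6 samples for all 5 genes. Without that sample, the log2 fold change of Meg3 was 0.94 and that of Rian was 1.13, and without Sox9cKO sample 2 they were 2.36 and 2.6.

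**Figure D4:**
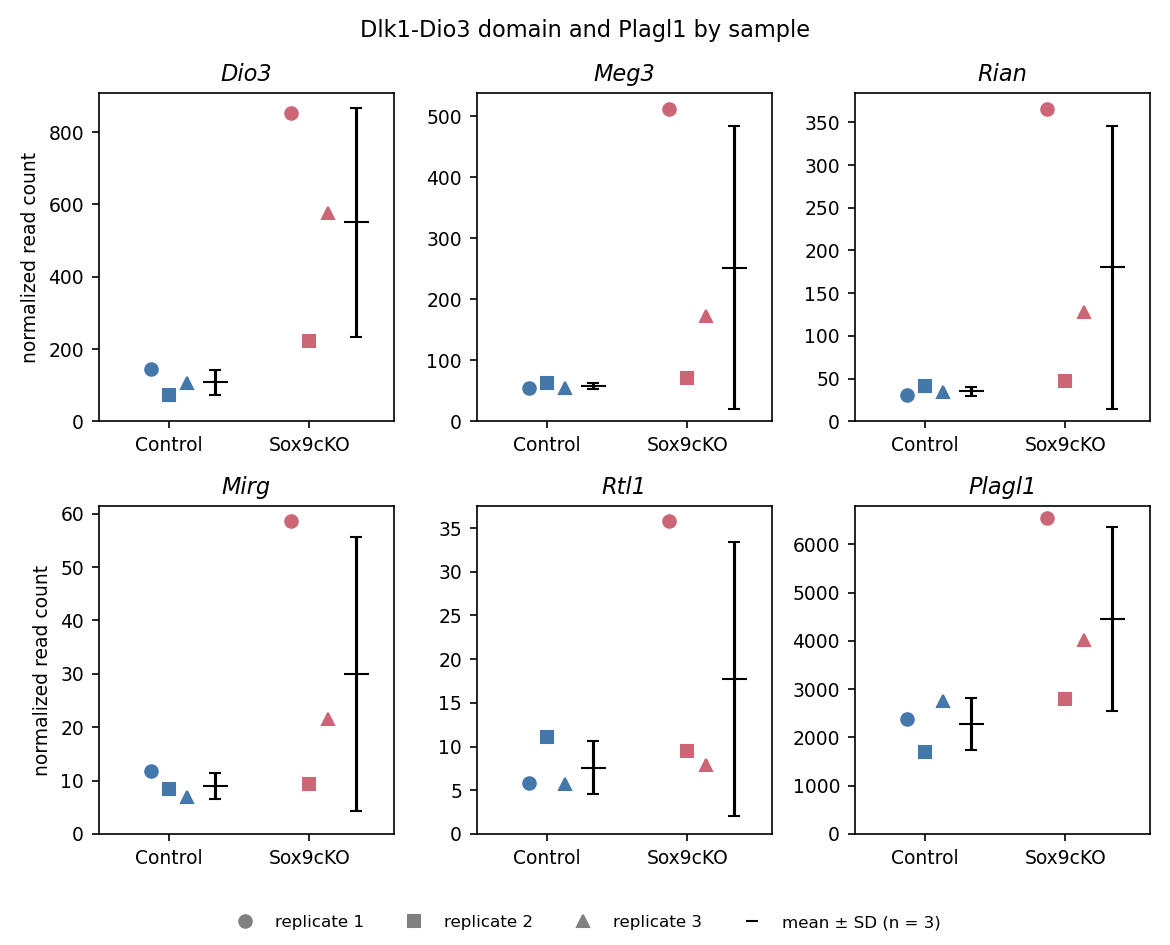
Normalized counts of Dio3, Meg3, Rian, Mirg, Rtl1 and Plagl1 in each sample, 1 panel per gene with its own axis (points, samples by replicate number; bars, mean ± SD, n = 3). Sox9cKO sample 1 is the highest point in each panel, and in Meg3 and Rian Sox9cKO sample 2 lies just above the Control points.

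The summed stellate cell, fibroblast and mesothelial markers had the order of Dio3, Meg3, Rian and Mirg in Sox9cKO, but not that of Rtl1, with 7198 in sample 1, 3383 in sample 2 and 5307 in sample 3. Msln had 1740, 827 and 1657 in Sox9cKO and 368, 273 and 364 in Control. Col1a1, a fibroblast collagen, had 759, 197 and 158 in Sox9cKO and 249, 174 and 76.0 in Control, a different order of samples 2 and 3. The part of these cells in the Dlk1-Dio3 values was not tested. Begain, an imprinted neighbour of the domain too low to test and named after its values were seen, had 3.36, 2.78 and 0 in Control and 15.9, 11.3 and 9.06 in Sox9cKO. Its groups were apart, where 10.1% of all rows were apart as higher.

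Plagl1, a zinc finger transcription factor read from the paternal copy, had 2375, 1706 and 2764 in Control and 6550, 2798 and 4011 in Sox9cKO. The lowest Sox9cKO value exceeded the highest Control value by little, and sample 1 was again highest. The means were 2281 ± 535 and 4453 ± 1915 (SD, n = 3), and the log2 fold change was 0.90 (SE 0.32, limma adjusted p 0.200, 0.0314 with the block, DESeq2 0.0458). Without Sox9cKO sample 1 the log2 fold change was 0.58.

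In the Igf2-H19 domain, whose genes are strong in fetal liver, levels were near the limit of counting. H19, a maternal non-coding RNA, had 0.841, 0 and 0 in Control and 15.9, 7.56 and 4.53 in Sox9cKO. It had a read in all Sox9cKO samples and in only 1 Control sample. The 1 read in Control and 28 in Sox9cKO gave a ratio of 29.8 with an exact 95% interval of 4.93 to 1218, for counting error only. Without the filter, the limma adjusted p of H19 was 0.0483 (0.0178 with the block), and edgeR gave 0.0695. Among the members other than Peg3, that unfiltered limma fit called H19 higher and 0 lower, where 1.41% and 0.755% of all rows were. Of these same members, unfiltered limma with the block called Usp29 and Peg10 lower (background 2.59%) and H19, Dio3 and Plagl1 higher (3.76%). Unfiltered edgeR called 0 of them lower (0.573%) and Dio3 higher (1.38%). Igf2, the paternal growth factor of the domain, had 8 reads in each group, and its groups overlapped.

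The receptor that clears IGF2, Igf2r, is maternally expressed and among the most abundant members. It had 2895, 2623 and 2860 in Control and 2771, 2881 and 3228 in Sox9cKO, with overlap (log2 fold change 0.08, limma adjusted p 0.754). Airn, the paternal non-coding RNA that overlaps Igf2r on the opposite strand, ranged from 272 to 384 in Control and from 213 to 285 in Sox9cKO (-0.41, limma adjusted p 0.313). The libraries keep strand, but whether counting used it is not given in the sources used here, so reads of overlapping opposite-strand genes may not be separated. The same holds, among others, for Airn and Mas1, Mest and Copg2, Nnat and Blcap, Ube3a and Snhg14, and Gnas and Nespas. It holds too for Tssc4 and Trpm5, Kcnq1ot1 and Kcnq1, Zrsr1 and Commd1, and Nap1l5 and Herc3. Trappc9 and Peg13, and H13 and Mcts2, overlap on the same strand.

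Other abundant members had overlapping groups and were not called. Grb10, a growth-restraining adaptor protein, had 2150, 1747 and 2263 in Control and 2092, 2297 and 2382 in Sox9cKO. Ube3a, a ubiquitin ligase, had 2129, 2241 and 2650 in Control and 2044, 2311 and 2724 in Sox9cKO. These were nearly equal between groups, with log2 fold changes of 0.14 and 0.01. Inpp5f, a phosphoinositide phosphatase, had 662, 495 and 652 in Control and 610, 659 and 649 in Sox9cKO (0.10). Gnas, the stimulatory G protein alpha subunit, had 4115, 4431 and 3415 in Control and 5129, 4809 and 3554 in Sox9cKO (0.16). Both groups had their lowest Gnas value in sample 3.

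Trappc9, a trafficking complex subunit, had 541, 584 and 541 in Control and 642, 620 and 563 in Sox9cKO (log2 fold change 0.13). H13, a signal peptide peptidase, had 1499, 1798 and 1527 in Control and 2009, 1957 and 1784 in Sox9cKO (0.26, limma adjusted p 0.321). For both genes 2 of the 3 Sox9cKO values were above all Control values and the third was not. In the Kcnq1 domain, the paternal non-coding RNA Kcnq1ot1 had 7008, 7914 and 10854 in Control and 4705, 8980 and 11445 in Sox9cKO (-0.11), with wide overlap. The maternal genes beside it were Cdkn1c, a cell cycle inhibitor (95.6 to 113 in Control, 81.5 to 159 in Sox9cKO), Phlda2 (7.42 to 15.0 and 5.67 to 19.9) and Tssc4 (234 to 341 and 166 to 267). The log2 fold changes of these 3 were 0.04, 0.05 and -0.47, none of them called.

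In the Snrpn domain, which is paternal apart from Ube3a, Snrpn (a splicing protein) ranged from 24.1 to 30.0 in Control and from 23.6 to 24.9 in Sox9cKO (-0.19). Ndn (necdin) was too low to test, with 4.20, 4.64 and 5.76 in Control and 2.98, 1.89 and 1.13 in Sox9cKO. Its groups were apart on 15 reads against 6. In other domains, Nnat ranged from 12.1 to 20.7 in Control and 10.2 to 19.8 in Sox9cKO, and Impact from 187 to 305 and 263 to 369. Zrsr1 and Commd1, which share a domain, ranged from 271 to 289 and 155 to 283, and from 120 to 175 and 115 to 179. None was called, and all 4 overlapped between groups. Nap1l5 had 9 reads in Control and 8 in Sox9cKO. Rasgrf1, a RAS exchange factor, stood at 354 in Sox9cKO sample 1 and at 21.9 to 145 in the other 5 samples.

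Mest and Asb4, both known from mesodermal and endothelial tissue, varied more between replicate numbers than between groups. Mest had 89.9, 224 and 25.3 in Control and 176, 225 and 53.2 in Sox9cKO. Asb4 had 164, 390 and 19.6 in Control and 284, 262 and 58.9 in Sox9cKO. Both were lowest in sample 3 of each group. The summed endothelial markers were likewise lowest there, with 13571, 43420 and 1957 in Control and 34519, 44474 and 7057 in Sox9cKO. Mest had the order of these sums in both groups, and Asb4 had it in Control only. In Sox9cKO, Asb4 was highest, at 284, in the sample with a sum of 34519, below the highest sum of 44474. The part of endothelial cells in the Mest and Asb4 values was not tested. The log2 fold changes of 0.67 for Mest and 0.58 for Asb4 were not called (limma adjusted p 0.733 and 0.832, with the block 0.151 and 0.372).

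Per kilobase of annotated exon, Peg3 was the fourth most abundant of the 35 genes in Control, at 290 ± 81.5 normalized counts per kilobase (SD, n = 3). Gnas at 356 ± 46.5, Igf2r and Plagl1 (292 ± 68.4) stood above it in that order, and Grb10 followed at 226 ± 29.9. Plagl1 and Grb10, the neighbours of Peg3 in rank, differed from it by less than its SD. In Sox9cKO, Peg3 at 62.4 per kilobase ranked 13 of 35, and Plagl1 at 570 ± 245 ranked first. Usp29 and Zim1 were near the bottom in both groups, Usp29 going from rank 33 to 35 and Zim1 from 28 to 34.

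A further list of 49 imprinted genes, none of them among the 38, held 37 with a row and 28 tested. Their median log2 fold change was 0.15. limma called none of them (5 lower and 5 higher at an unadjusted p under 0.05), edgeR called 0, and DESeq2 called 3 lower and 1 higher (background 2.87% and 4.20%). The share of all tested genes at the unadjusted threshold is not given here, so the unadjusted counts have no background. With the block, limma called 1 lower and 3 higher (background 2.99% and 5.06%). The 3 that DESeq2 called lower were Slc38a4, an amino acid transporter (log2 fold change from limma -0.59, DESeq2 adjusted p 0.0403), Ppp1r9a (-0.45, DESeq2 0.0249) and Zdbf2 (-1.01, DESeq2 0.0499). Slc38a4 had 1834, 1453 and 1475 in Control and 837, 1158 and 1195 in Sox9cKO, Ppp1r9a 1783 to 2323 and 1427 to 1456, and Zdbf2 51.3 to 69.1 and 24.6 to 36.2. These 3 are named because DESeq2 called them. In each the groups were apart, where 10.8% of all tested genes were apart as lower. limma with the block gave adjusted p of 0.0938, 0.0580 and 0.0633. Atp10a, a phospholipid flippase, was the lower gene, with 1242, 1028 and 1639 in Control and 680, 824 and 1082 in Sox9cKO (log2 fold change -0.60, limma adjusted p 0.230, 0.0420 with the block), and its groups overlapped. Ddc, which makes dopamine and serotonin, had 10.9, 15.8 and 12.7 in Control and 110, 36.9 and 44.2 in Sox9cKO, with the groups apart (2.04, limma adjusted p 0.0640, 0.0381 with the block). Blcap had 514, 559 and 618 in Control and 656, 793 and 967 in Sox9cKO, also apart (0.50, limma adjusted p 0.183, 0.0468 with the block). Of all tested genes, 13.4% were apart as higher. Adam23 had 691, 1113 and 85.3 in Control and 1764, 1589 and 414 in Sox9cKO (1.38, limma adjusted p 0.528, 0.0398 with the block), and like Mest it was lowest in sample 3 of each group.

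Of 19 genes whose products keep or erase imprints, 17 were tested and 1 was called. Zfp57, whose zinc finger protein binds the methylated copy of imprint control regions and recruits TRIM28, rose. It had 19.3, 30.6 and 19.6 normalized counts in Control and 133, 152 and 102 in Sox9cKO. All Sox9cKO values were far above all Control values. The means were 23.2 ± 6.45 and 129 ± 25.4 (SD, n = 3), a 5.57-fold difference, and the log2 fold change was 2.44 (SE 0.28, limma adjusted p 0.00659, 0.00252 with the block, edgeR 0.00819). It was called under all 18 alternative settings, with log2 fold changes from 2.26 to 2.65 and adjusted p up to 0.0366. The background in limma was 2.97% of genes called in either direction.

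The other 16 tested genes of that list were not called by limma with or without the block, by edgeR or by DESeq2, and Dnmt3a and Ehmt2 had an unadjusted p under 0.05 (log2 fold changes 0.31 and 0.32). Zfp445, the other zinc finger protein that reads imprint control regions, had 1015, 1167 and 1142 in Control and 1073, 1448 and 1140 in Sox9cKO (0.13, limma adjusted p 0.703). Trim28, the shared co-repressor, ranged from 2092 to 2607 in Control and 2170 to 2593 in Sox9cKO (-0.06). Dnmt1, the maintenance DNA methyltransferase, ranged from 786 to 1047 and 976 to 1076 (0.17). The lowest log2 fold change was -0.53 for Tet1 and the highest among the 16 was 0.36 for Tet3, both enzymes that oxidise methylcytosine. Dppa3 was under the filter, and Dnmt3l was not analysed here.

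**Figure D5:**
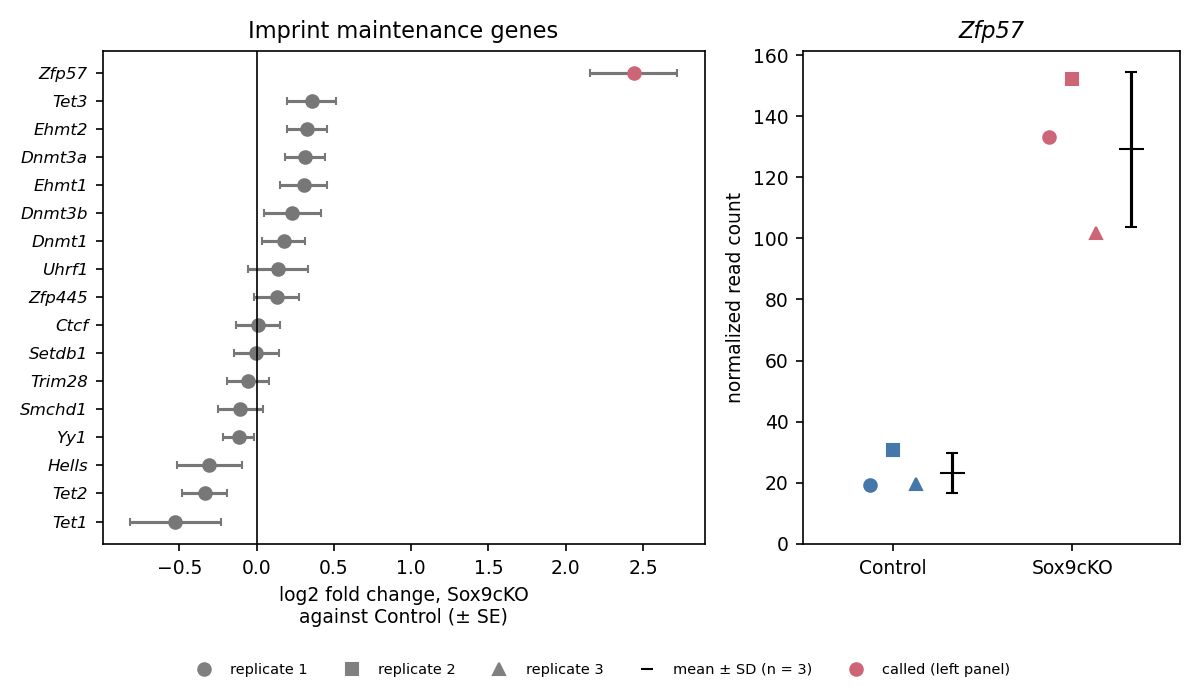
Log2 fold change (Sox9cKO over Control) with bars of 1 standard error for the 17 tested imprint maintenance genes, and the normalized counts of Zfp57 in each sample (bars, mean ± SD, n = 3). Zfp57 stands at 2.44 and the other 16 genes lie between -0.53 and 0.36.

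The PEG3 protein is known to act with SIAH1 and TRAF2 in cell death and survival signalling, with p53 and BAX, and with beta-catenin and Beclin 1. None of the 8 genes for these partners (Siah1a, Siah1b, Siah2, Traf2, Bax, Trp53, Ctnnb1 and Becn1) was called by limma with or without the block, by edgeR or by DESeq2, and 0 had an unadjusted p under 0.05. Their log2 fold changes ran from -0.24 for Siah2 to 0.36 for Bax, with a median of 0.03. Ctnnb1, the most abundant, had 11455, 9672 and 10633 in Control and 13621, 10455 and 12345 in Sox9cKO, with overlapping groups.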

How the data were processed

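RNA from 6 samples was sequenced after ribosomal RNA depletion, with a stranded kit that adds molecular identifiers, per the labels. The table deposited by the authors holds a signal, in which the count of each gene is divided by 1 size factor per sample, as the deposited values show. GRCm39 and DESeq2 1.36.0 are named in the submitters' processing notes. The aligner, the counter and the use of strand and identifiers are not given in the sources used here. Whole reads were recovered for 100% of values (tolerance 0.001), and no gene had fewer than 10 reads in all 6 samples together. The recovered totals of 11883496 to 16191990 reads in genes limit precision for genes with few reads. Intervals and zero counts cover counting error only.

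The members and gene lists were chosen with earlier results of these data known. log2(value + 1) was fitted with limma 3.58.1 in R 4.3.3 (lmFit, eBayes with trend) for genes with a mean of at least 10, and p-values were two-sided and adjusted by Benjamini-Hochberg over all 17153 genes, with a threshold of 0.05. Fold changes on this scale are understated for low genes. The samples entered by group, without the replicate number. Replicates are numbered 1 to 3 in the titles of both groups. Each title also carries a number in brackets, and these numbers lie close together for same-numbered samples. The titles do not explain them, and they were not used. Deviations from the group means correlated across genes at 0.207, 0.472 and 0.542 for same-numbered samples, so the block on that number is given where it changes a call. edgeR 4.0.16 and DESeq2 1.42.0 on the recovered reads were alternatives (whole numbers of reads), and edgeR called 491 genes. Also tried were a pseudocount of 0.1 or of 5, the filter removed or raised to 50, quantile normalization, TMM factors, sample weights, no trend and leaving out each sample. Fits without the filter by edgeR or with the block were added after seeing the data. The scripts were tested on simulated data.

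Sample values are given for the Peg3 domain, for called members and for members with a mean of at least 500, and others by range, except Meg3, Rian, Mirg, Rtl1, Mest, Asb4, Ndn, H19 and Rasgrf1 and neighbouring genes, chosen after their values were seen. Ratios of reads have exact 95% intervals from the binomial distribution of reads between groups. Exon lengths and overlaps came from GENCODE M21 on GRCm38, in which 98.1% of rows matched. Of the 38 named genes, 31 had a RefSeq promoter window of 300 bases, 28 of them with a row.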

Additional observations from a re-analysis of the deposited data

How the results depend on the processing

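Peg3 was chosen by its low values in these samples, so the spread of its log2 fold change over the 18 alternatives is only a description. It lay between -2.43 and -2.01 when 1 sample was left out and between -2.39 and -2.19 otherwise. The median of the other imprinted genes tested in each setting, not always the same 28, stayed above 0 (0.058 to 0.21). The median of all genes tested in each setting went below 0 with no filter (-0.051), TMM factors (-0.0082), quantile normalization (-0.031), edgeR (-0.0050) and edgeR with the replicate block (-0.0077). The number of genes called, 510 (161 lower and 349 higher), was 1043 with sample weights (412 and 631), 1381 with the replicate block (513 and 868), 1160 by edgeR with the block (496 and 664) and 1214 by DESeq2 (493 and 721). With 1 sample left out it ran from 200 to 389 (47 to 114 lower, 153 to 275 higher). It was 200 without Control sample 1, 210 without Control sample 3, 337 without Sox9cKO sample 2 and 280 without Sox9cKO sample 3.

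Of the imprinted genes other than Peg3, 1 was called lower, in place of 0, with quantile normalization, sample weights, the block, edgeR with the block and DESeq2 (0 to 0 with 1 sample left out). The number called higher was 1 with no filter, 2 with the block by limma or edgeR and 4 by DESeq2 (0 to 1 with 1 sample left out, the 1 being without Sox9cKO sample 2). Of the further imprinted genes, 1 was called with quantile normalization or sample weights, 4 with the block or by DESeq2, and 2 by edgeR with the block. For these differences between settings the cause was not tested. The count of maintenance genes and partners stayed at 1 and that of the genes flanking Peg3 at 0. Apart from the genes whose call with the block is given beside their values, the block changed the call of no tested imprinted, maintenance, partner or flanking gene. Usp29, Zim1, H19, Ndn and Smim17 rest on at most 42 reads per group, and their differences are limited by depth.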
